A study of Homo sapiens with 6 samples.

Results

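NRF2 is the transcription factor through which cells switch on genes against oxidants and electrophiles, and 9 genes of its pathway were examined in Cisplatin-treated HK-2 cells with and without NAT10 silencing. They were chosen by gene name from the deposited table, 9 of the 62754 rows, and comprise NFE2L2, which encodes NRF2 itself, its inhibitor KEAP1, and the targets NQO1, TXNRD1, SRXN1, GCLC, GCLM, HMOX1 and OSGIN1. HK-2 is an immortalized human proximal tubule epithelial line. In 3 libraries the cells had received a control siRNA (group CP+siNC), and in 3 they had received siRNA against NAT10 (group CP+siNAT10), whose sequence is not given in the sources used here. Cisplatin was given to both groups, no library without Cisplatin was analysed here, and the labels give neither its dose nor its duration. The labels do not say whether the libraries of a group came from separate cultures, so p-values measure the spread between these libraries, which may be technical. Total counts were 19321665, 21602988 and 19464027 in the CP+siNC libraries and 20793709, 21531774 and 25192736 in the CP+siNAT10 libraries.

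In unstressed cells KEAP1 bridges NRF2 to a CUL3 ubiquitin ligase, and NRF2 is continuously degraded. Oxidants and electrophiles modify cysteines of KEAP1, NRF2 then accumulates, pairs with a small MAF protein and binds antioxidant response elements (AREs) near its target genes. Control is therefore mainly at the level of the protein, which these mRNA counts do not measure. The proximal tubule takes up and concentrates Cisplatin, and NRF2 targets are part of its defence against the drug.

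The targeted gene was measured first. NAT10 (ENSG00000135372) was at 75.8, 71.4 and 73.2 CPM (counts scaled to the TMM-adjusted library size) in CP+siNC and at 41.3, 40.5 and 42.4 CPM in CP+siNAT10. The CP+siNAT10 mean was 56.4% of the CP+siNC mean, a partial decrease at the mRNA level (log2 fold change -0.82, adjusted p = 2.79e-15, edgeR). The cell type was checked against marker genes. Keratin 8 (KRT8), an epithelial keratin, stood at 1455 CPM in CP+siNC and 1450.0 CPM in CP+siNAT10, and the renal lineage factor PAX8 rose from 31.4 to 47.2 CPM. Of the 7 tested genes of this epithelial and renal list of 8, 2 were lower and 2 higher. Across all tested genes 22.3% were lower and 21.8% higher. KRT18, the keratin that pairs with KRT8, fell from 346 ± 6.00 to 269 ± 7.24 CPM (log2 fold change -0.36, adjusted p = 3.79e-10, edgeR) and KRT7 fell by 0.15 on the log2 scale, while EPCAM rose by 0.31. The epithelial cadherin CDH1, named after its values were seen, had 6 counts in all libraries together. Of 13 proximal tubule markers, 10 were under 1 CPM on average, including the endocytic receptors LRP2 and CUBN, and SLC22A6, an organic anion transporter, had no count in any library; these 3 were named after their values were seen. The highest per length of the 13 was GGT1, at 33.2 CPM in CP+siNC and 27.4 CPM in CP+siNAT10 (lower), while the glucose transporter SLC5A2 was at 9.30 CPM in CP+siNC and 11.5 CPM in CP+siNAT10 (log2 fold change 0.31, adjusted p = 0.00362, edgeR). These were the 2 called genes among the 4 tested, against 44.1% called across all tested genes. The list summed to 45.8, 46.3 and 44.3 CPM in CP+siNC and to 43.7, 39.7 and 43.0 CPM in CP+siNAT10. Epithelial keratins were thus present in these libraries, with CDH1 nearly absent, while most defining markers of the differentiated proximal tubule were absent or nearly so. Of 15 markers of other kidney cell types, 12 were under 1 CPM, and SLC12A3, a salt transporter of the distal tubule named after its values were seen, had no count. Of the 5 with enough counts to test, 3 were higher in CP+siNAT10 and none lower, against 21.8% higher and 22.3% lower across all tested genes. CD68, a lysosomal protein used as a macrophage marker, was the highest per length of the 15, at 207 CPM in CP+siNC and 272 CPM in CP+siNAT10, and the list summed to 221, 212 and 228 CPM in CP+siNC and to 303, 282 and 283 CPM in CP+siNAT10. The leukocyte gene PTPRC, 1 of the 3, was under 1 CPM on average in both groups, and edgeR did not call it without CP+siNC replicate 1, 2 or 3 (adjusted p 0.0932, 0.0719 and 0.103) or without CP+siNAT10 replicate 2 (adjusted p 0.404). It was also not called by DESeq2 (adjusted p = 0.177) and not tested with the stricter filter. The collagen gene COL1A1, the remaining one of the 3, was at 10.5 CPM in CP+siNC and 13.6 CPM in CP+siNAT10 and kept its call in all 12 alternative settings. Also in this list, ACTA2 was at 0.834 CPM in CP+siNC and 0.525 CPM in CP+siNAT10 and was not called. PDGFRB, named after its values were seen, was at 0.352 and 0.133 CPM and had too few counts to test. CD14, another monocyte and macrophage marker, named after its values were seen, was at 1.07 and 1.04 CPM and was not called. Whether the rise of CD68 or COL1A1 had a part in the results below was not tested.

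Promoter sequences are shown for the genes whose window holds the letters of an ARE, since this element is what NRF2 targets are known to share. RefSeq windows from 250 bases before to 50 bases after each annotated start (GRCh38.p14) matched 8 of the 9 genes by symbol, and HMOX1 had no entry. The core TGACNNNGC was searched on both strands. It was found in TXNRD1, GCLM and KEAP1, that is in 3 of 8 genes, against 16.1% of the 27305 genes with a window (13.3% of the 35116 windows). Capitals mark the core on either strand, and each stretch is printed along the strand of its gene.

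TXNRD1, chr12:104215655-104215714, plus strand, first annotated start: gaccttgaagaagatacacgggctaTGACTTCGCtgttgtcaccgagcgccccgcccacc
TXNRD1, chr12:104286905-104286964, plus strand, second annotated start: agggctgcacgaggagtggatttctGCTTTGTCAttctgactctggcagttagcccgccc
GCLM, chr1:93909431-93909489, minus strand: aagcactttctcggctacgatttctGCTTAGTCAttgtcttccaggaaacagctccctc
KEAP1, chr19:10502791-10502850, minus strand, the start further downstream: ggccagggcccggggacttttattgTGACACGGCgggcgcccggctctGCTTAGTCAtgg

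The matches began 99 bases before the first and 102 bases before the second TXNRD1 start, 34 bases before the GCLM start, and 54 and 31 bases before the downstream KEAP1 start. A further TXNRD1 match overlapped the first start itself. GCLM and KEAP1 share the same 9 letters, GCTTAGTCA. A match is a description of the letters and does not show binding, and windows without a match, such as those of NQO1, SRXN1 and GCLC, say nothing about elements further away. The related AP-1 letters TGACTCA were found in OSGIN1 alone of the 8 genes, against 6.05% of all genes (4.95% of windows).

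Among the 9 genes, 5 were lower in CP+siNAT10, namely TXNRD1, NQO1, SRXN1, GCLM and NFE2L2, and none was higher (edgeR, with 0 higher also by DESeq2 and 0 at an unadjusted p under 0.05). KEAP1, GCLC, HMOX1 and OSGIN1 did not pass the test. Tests were run in edgeR (quasi-likelihood) on the 19874 genes with enough counts, and a gene was called at a Benjamini-Hochberg adjusted p under 0.05. All 9 genes had at least 210 counts in every library and none fell under the low limit of 10 counts in 3 libraries. Across all tested genes 44.1% were called, 22.3% lower and 21.8% higher, so 5 of 9 in either direction is to be read against 44.1%, and 5 of 9 lower against 22.3%. DESeq2 called fewer genes, 6306 of 20373 (3226 lower), and the same 5 of the 9. With the additional limit of a log2 fold change over 1 in size, which 2.33% of all genes passed, none of the 9 passed. Their median log2 fold change was -0.15, against 0.0070 for all tested genes. In bulk RNA of a culture, less RNA per cell and fewer cells that express a gene cannot be told apart.

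**Figure D1:**
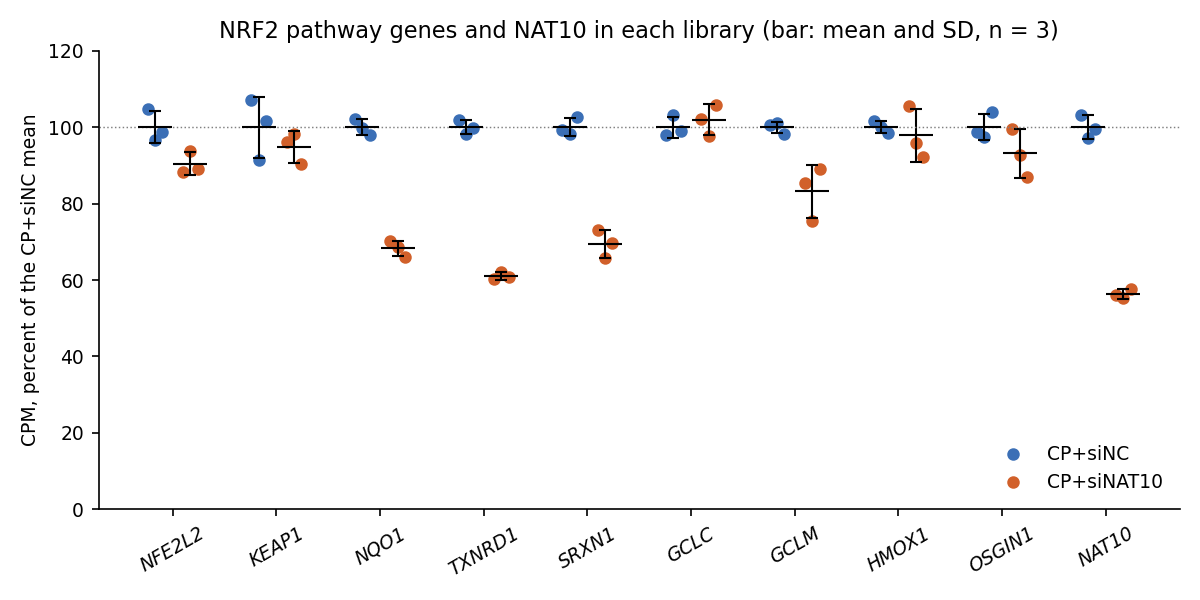
CPM of each of the 9 genes and of NAT10 as a percent of the CP+siNC mean of that gene, with 1 point per library (blue CP+siNC, orange CP+siNAT10) and bars for the mean and SD (n = 3 per group). TXNRD1, NQO1 and SRXN1 lie at 61.1%, 68.3% and 69.4% of the control mean, while the points of GCLC, HMOX1, KEAP1 and OSGIN1 overlap.

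NFE2L2, the gene of NRF2, was slightly lower after NAT10 silencing. NFE2L2 (ENSG00000116044) lies on chromosome 2 from 177218667 to 177392679 (GRCh38, minus strand). It was measured at 293, 270.5 and 276 CPM in CP+siNC and at 247, 263 and 249.7 CPM in CP+siNAT10. The groups did not overlap, but the lowest control and the highest silenced library were close. CP+siNC averaged 280.0 ± 11.8 CPM and CP+siNAT10 253 ± 8.37 CPM (mean ± SD of 3 libraries). The log2 fold change was -0.15 (standard error 0.0357, 95% interval -0.22 to -0.07, adjusted p = 0.00139, edgeR). This change was smaller in size than that of most genes, at the 37th percentile of absolute log2 fold changes among all tested genes. HNRNPA3, an RNA-binding protein gene named after its values were seen, overlaps the end of NFE2L2 on the opposite strand at 629 CPM in CP+siNC and 539 CPM in CP+siNAT10, and whether counting used strand is not given in the sources used here. Over the 6 libraries, the genes of at least 5 CPM whose log2 CPM followed NFE2L2 most closely were ENSG00000286319 (Pearson r = 0.9948), the fatty acid desaturase gene FADS1 (r = 0.9938) and the translation termination factor gene GSPT2 (r = 0.9877), out of 12303 genes compared. These correlations describe 6 libraries that fall into 2 groups, so any gene that differs between the groups with little spread can reach a high value.

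KEAP1, the adaptor that marks NRF2 for degradation, did not pass the test. The gene (ENSG00000079999) lies on chromosome 19 from 10486125 to 10503356 (minus strand). Its levels were 63.8, 54.5 and 60.5 CPM in CP+siNC and 57.2, 58.6 and 53.8 CPM in CP+siNAT10, so the groups overlapped. The log2 fold change was -0.08 (95% interval -0.18 to 0.03, adjusted p = 0.231, edgeR). Without CP+siNC replicate 2, its lowest control library, the value was -0.14 (adjusted p = 0.0226, edgeR). Without CP+siNC replicate 1, its highest control library, it was -0.03 (adjusted p = 0.739, edgeR). The value thus moved in either direction with single libraries, and KEAP1 was called in no other alternative setting. The ratio of KEAP1 to NFE2L2 on the RPKM scale was 0.891 ± 0.0410 in CP+siNC and 0.936 ± 0.0339 in CP+siNAT10 (mean ± SD of 3 libraries, exact two-sided permutation p = 0.3, and 0.3 adjusted over the 2 ratios tested).

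TXNRD1 fell most of the 9 genes. It encodes cytosolic thioredoxin reductase, a selenoprotein that keeps thioredoxin reduced with electrons from NADPH. The gene (ENSG00000198431) lies on chromosome 12 from 104215779 to 104350274 (plus strand). Its levels were 689, 663 and 675 CPM in CP+siNC and 407, 420.5 and 411 CPM in CP+siNAT10. All CP+siNAT10 libraries were far below all CP+siNC libraries, with little spread in either group. CP+siNC averaged 676 ± 12.9 CPM and CP+siNAT10 413 ± 6.76 CPM (mean ± SD of 3 libraries), or 61.1% of the control level. The log2 fold change was -0.71 (standard error 0.0324, 95% interval -0.78 to -0.64, adjusted p = 2.25e-16, edgeR), at the 93rd percentile of absolute changes.

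NQO1, a quinone reductase that is often used as a readout of NRF2 activity, fell as well. The gene (ENSG00000181019) lies on chromosome 16 from 69706996 to 69726560 (minus strand). Its levels were 113, 111 and 109 CPM in CP+siNC and 77.7, 76.1 and 73.3 CPM in CP+siNAT10. No CP+siNAT10 library came near the controls. Averages were 111 ± 2.36 CPM in CP+siNC and 75.7 ± 2.25 CPM in CP+siNAT10 (mean ± SD of 3 libraries), or 68.3% of the control level. edgeR put the log2 fold change at -0.55 (standard error 0.0375, 95% interval -0.63 to -0.47, adjusted p = 1.07e-12). An unnamed gene on the opposite strand within NQO1, ENSG00000261602, was at 6.55 CPM in CP+siNC and 3.64 CPM in CP+siNAT10, and reads of the pair could be told apart only if strand was used.

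SRXN1 encodes sulfiredoxin, which repairs over-oxidized peroxiredoxins. The gene (ENSG00000271303) lies on chromosome 20 from 646615 to 653200 (minus strand). Its levels were 45.0, 44.6 and 46.5 CPM in CP+siNC and 33.1, 29.8 and 31.6 CPM in CP+siNAT10. The groups were well apart. Averages were 45.4 ± 1.03 CPM in CP+siNC and 31.5 ± 1.64 CPM in CP+siNAT10 (mean ± SD of 3 libraries), or 69.4% of the control level. edgeR put the log2 fold change at -0.53 (standard error 0.0490, 95% interval -0.63 to -0.43, adjusted p = 6.06e-10). The value is uncertain in 1 respect, since ENSG00000270299, a longer gene on the same strand, covers nearly the whole of SRXN1. ENSG00000270299 was itself at 41.0 CPM in CP+siNC and 28.6 CPM in CP+siNAT10. Whether reads shared by these genes were split, given to 1 of them or left out is not given in the sources used here.

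The subunits of glutamate-cysteine ligase, the rate-limiting enzyme of glutathione synthesis, were measured side by side. GCLM (ENSG00000023909), the modifier subunit, lies on chromosome 1 from 93885199 to 93909430 (minus strand). It was at 28.9, 29.1 and 28.2 CPM in CP+siNC and at 24.5, 21.7 and 25.6 CPM in CP+siNAT10. The silenced libraries were all lower but more scattered. The log2 fold change was -0.26 (standard error 0.0585, 95% interval -0.38 to -0.14, adjusted p = 0.000524, edgeR). GCLC (ENSG00000001084), the catalytic subunit, lies on chromosome 6 from 53497341 to 53616970 (minus strand). It was at 35.8, 37.8 and 36.3 CPM in CP+siNC and at 37.4, 35.8 and 38.8 CPM in CP+siNAT10. These groups overlapped, and the log2 fold change was 0.03 (95% interval -0.07 to 0.13, adjusted p = 0.683, edgeR), so that a fall as large as that of GCLM lay outside the interval. Its sign rested on a single library, since without CP+siNAT10 replicate 3 the value was -0.00111. The ratio of GCLC to GCLM on the RPKM scale, which is free of library scaling, was 0.781, 0.819 and 0.809 in CP+siNC and 0.962, 1.04 and 0.955 in CP+siNAT10. Every CP+siNAT10 ratio was above every CP+siNC ratio (exact two-sided permutation p = 0.1, the smallest that 3 against 3 libraries can give, and 0.2 adjusted over the 2 ratios tested).

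HMOX1 (ENSG00000100292) and OSGIN1 (ENSG00000140961) had the fewest counts of the 9 genes, and neither passed the test. HMOX1, the inducible heme oxygenase that frees iron, carbon monoxide and biliverdin from heme, lies on chromosome 22 from 35380361 to 35394214 (plus strand). Its levels were 11.3, 11.1 and 10.9 CPM in CP+siNC and 11.7, 10.6 and 10.2 CPM in CP+siNAT10. The groups overlapped, with a log2 fold change of -0.04 (95% interval -0.20 to 0.13, adjusted p = 0.764, edgeR), and without CP+siNAT10 replicate 3 it was 0.00961. OSGIN1, an oxidative stress-induced growth inhibitor, lies on chromosome 16 from 83931311 to 83966332 (plus strand). Its levels were 14.1, 13.9 and 14.8 CPM in CP+siNC and 14.2, 13.3 and 12.4 CPM in CP+siNAT10. These overlapped too, with a log2 fold change of -0.11 (95% interval -0.26 to 0.05, adjusted p = 0.261, edgeR). MLYCD, a neighbour on the same strand named after its values were seen, overlaps OSGIN1. MLYCD was at 9.22 CPM in CP+siNC and 13.7 CPM in CP+siNAT10, and how reads shared with OSGIN1 were counted is not given either. The intervals of HMOX1 and OSGIN1 lie above the whole interval of NQO1 and of TXNRD1.

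**Figure D2:**
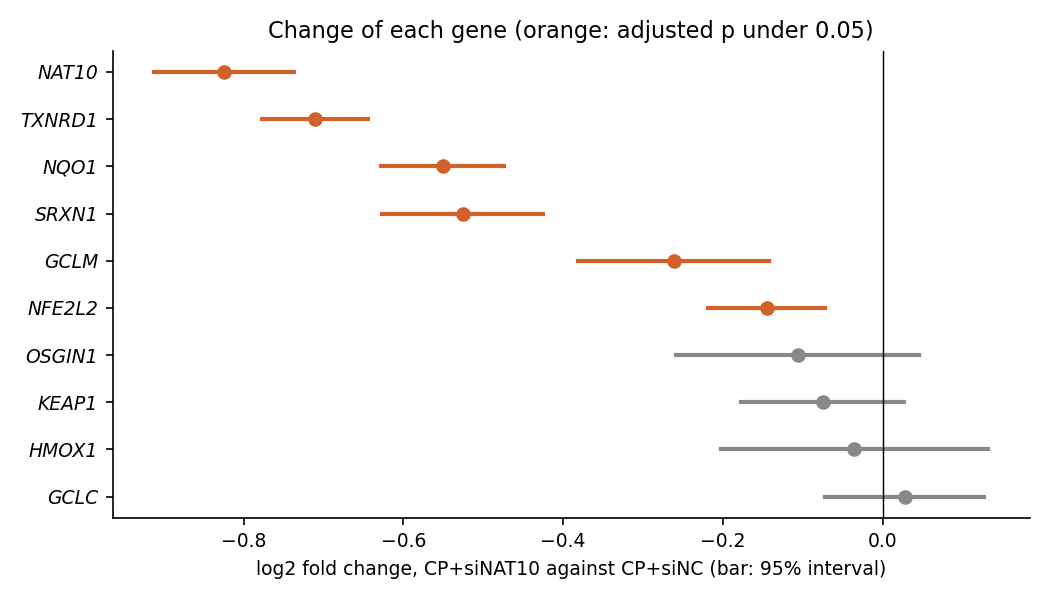
Log2 fold change of each of the 9 genes and NAT10 between CP+siNAT10 and CP+siNC, with 95% intervals as bars; orange genes have an adjusted p under 0.05 and grey genes do not. The interval of TXNRD1, -0.78 to -0.64, does not meet that of NQO1, -0.63 to -0.47, and the 4 grey intervals include 0.

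To compare levels between genes, CPM was divided by gene length (RPKM). TXNRD1 was the highest of the 9 in both groups, at a mean of 100.7 RPKM in CP+siNC and 61.5 RPKM in CP+siNAT10, and NQO1 followed at 37.3 and 25.5 RPKM. In CP+siNC the next were NFE2L2 at 18.7, SRXN1 at 17.9 and KEAP1 at 16.7 RPKM, and the libraries of neighbours in this order overlapped. GCLM at 5.29, HMOX1 at 4.80, GCLC at 4.25 and OSGIN1 at 2.57 RPKM were lower, with no overlap between neighbours. After NAT10 silencing KEAP1 (15.8 RPKM) stood above SRXN1 (12.5 RPKM) with no overlap, and HMOX1, GCLM and GCLC overlapped at 4.70, 4.41 and 4.33 RPKM. The length listed for NFE2L2, 14975 bases, sums all its annotated exons and makes its RPKM a low estimate. The deposited lengths of the other genes, such as 8618 bases for GCLC, may do the same. The order between genes depends on these lengths.

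**Figure D3:**
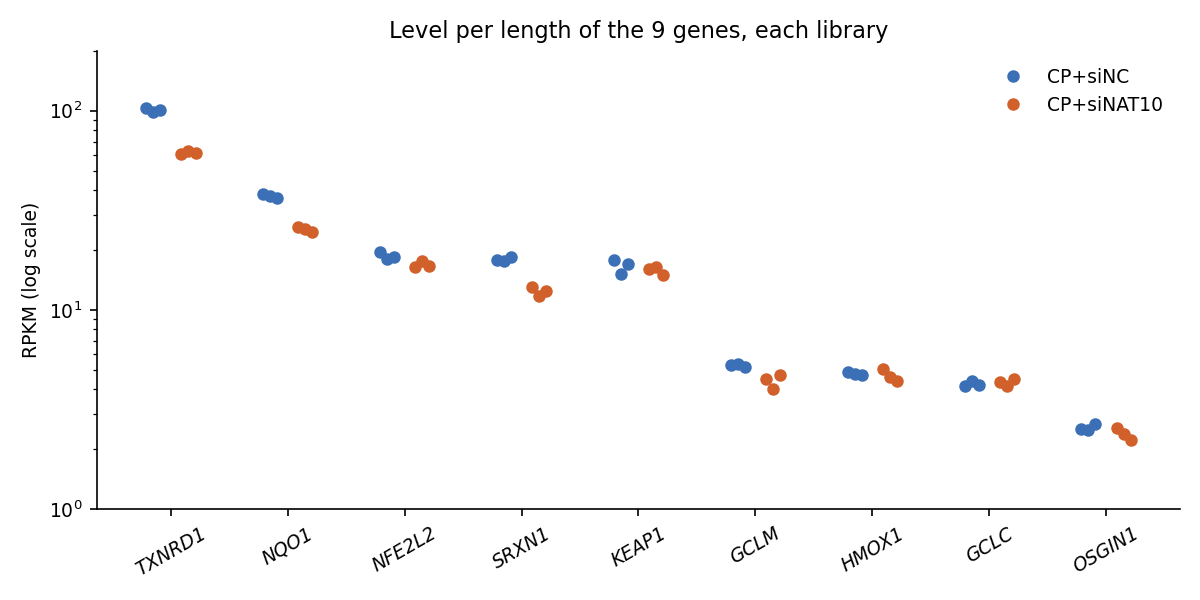
Level per length (RPKM, log scale) of the 9 genes in each library (blue CP+siNC, orange CP+siNAT10), ordered by the CP+siNC mean. TXNRD1 stands highest at 100.7 RPKM in CP+siNC and falls to 61.5 RPKM, and GCLM, HMOX1 and GCLC lie close together between 4.00 and 5.36 RPKM.

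The 3′ UTRs of the 9 genes were searched for the heptamer GACTATC, for its shifted neighbour ACTATCA and for CATATTC, because genes that carry them were more often lower in these libraries. The heptamers were themselves found in an earlier search of the same libraries, so this is not independent evidence. Over 12964 tested protein-coding genes with an annotated 3′ UTR in GENCODE 29, those with any of the heptamers, 17.5% of all, had a median log2 fold change of -0.08, against 0.03 for the rest. Of the 5 lower genes 3 carried a match, namely TXNRD1, NQO1 and GCLM, and of the other 4 none did. Over all tested protein-coding genes a match was present in 26.9% of the lower genes and 15.1% of those not called. NFE2L2 and SRXN1 were lower without a match. The TXNRD1 and NQO1 sites, with the heptamer in capitals, are printed along the mRNA with GRCh38 positions.

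TXNRD1, chr12:104349973-104349999, plus strand, CATATTC: ggcagttgacCATATTCagttttattt
NQO1, chr16:69710783-69710809, minus strand, ACTATCA: tcttatgattACTATCAtggcatataa

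GCLM held 4 matches in a 3′ UTR of 3785 bases, against 1 in 1884 bases in TXNRD1 and 1 in 1575 bases in NQO1. The longest annotated 3′ UTR of each gene was used, and longer ones can hold more matches. The 3′ UTRs of the 4 genes that were not called were all shorter than those of the 3 matched genes, from 325 bases in OSGIN1 to 1415 bases in GCLC. Whether these sites had a part in the lower levels was not tested.

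Other genes of the pathway were described with lists by role, read against the same background of 44.1% called. Among 25 tested genes listed as regulators and partners of NRF2, 5 were lower and 8 higher, with a median log2 fold change of 0.01. Of the small MAF partners, MAFF fell from 134 ± 6.40 to 97.5 ± 3.79 CPM (log2 fold change -0.46, adjusted p = 1.38e-10, edgeR) and MAFK from 69.4 ± 1.94 to 51.9 ± 1.01 CPM (-0.42, adjusted p = 1.68e-09, edgeR). MAFG, named after its values were seen, was at 130.4 and 138 CPM (adjusted p = 0.0539, edgeR). NFE2L3, a relative of NRF2 of the same family, fell from 18.6 ± 0.324 to 9.67 ± 0.244 CPM (-0.95, adjusted p = 8.52e-12, edgeR), whereas NFE2L1, the relative that controls proteasome genes, rose from 522 ± 9.23 to 564 ± 7.75 CPM (0.11, adjusted p = 0.00551, edgeR). NRBF2, counted among the 5 lower genes of this list but a subunit of the autophagy lipid kinase complex that is not itself known to control NRF2, fell by 0.96 on the log2 scale. Of the 8 higher genes, CUL1 and CUL3, scaffolds of ubiquitin ligases that act on NRF2, were named after their values were seen. CUL1 rose by 0.28 on the log2 scale (adjusted p = 1.36e-06, edgeR). CUL3, the partner of KEAP1, was at 69.7 CPM in CP+siNC and 75.6 CPM in CP+siNAT10 (0.12, adjusted p = 0.0188, edgeR), and lost its call with DESeq2 (adjusted p = 0.0861) and in edgeR without CP+siNC replicate 1 (adjusted p = 0.0717) or replicate 2 (adjusted p = 0.0910) or CP+siNAT10 replicate 2 (adjusted p = 0.101). The KEAP1-binding autophagy receptor SQSTM1 was at 249 ± 2.94 and 257 ± 3.00 CPM and did not pass (adjusted p = 0.249, edgeR). BACH1, a repressor that competes for AREs and was named after its values were seen, fell from 32.4 ± 1.10 to 27.2 ± 1.21 CPM (-0.25, adjusted p = 0.000247, edgeR).

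In the thioredoxin and peroxiredoxin system, in which TXNRD1 and SRXN1 act, 9 of 19 tested genes were lower and 3 higher, and the median was -0.04. Of the 9, TXNRD2, PRDX5 and SESN3, named after their values were seen, lost their call with library size only, with DESeq2 and without some single libraries, and the groups of SESN3 overlapped. Thioredoxin itself, TXN, the substrate of TXNRD1, fell from 345 ± 18.3 to 284 ± 4.22 CPM (log2 fold change -0.28, adjusted p = 1.76e-07, edgeR). PRDX6, at 110, 112 and 111 CPM in CP+siNC and 65.0, 61.0 and 64.2 CPM in CP+siNAT10, fell by 0.80 on the log2 scale (adjusted p = 4.23e-16, edgeR), and its 3′ UTR holds all 3 heptamers. PRDX3, the mitochondrial peroxiredoxin, fell from 47.0 ± 0.662 to 26.2 ± 0.375 CPM (-0.85, adjusted p = 1.61e-14, edgeR) and holds none of them. The 3′ UTR of CUL3, a gene called higher above, also holds all 3 heptamers. PRDX1, the highest per length of the peroxiredoxins tested (231 RPKM in CP+siNC), fell from 389 ± 4.07 to 352 ± 7.17 CPM (-0.14, adjusted p = 0.000544, edgeR). In the other direction, PRDX4, the peroxiredoxin of the endoplasmic reticulum, rose from 37.6 ± 2.37 to 57.2 ± 2.63 CPM (0.60, adjusted p = 4.79e-11, edgeR), and MSRB3, a methionine sulfoxide reductase, rose by 0.62 on the log2 scale.

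**Figure D4:**
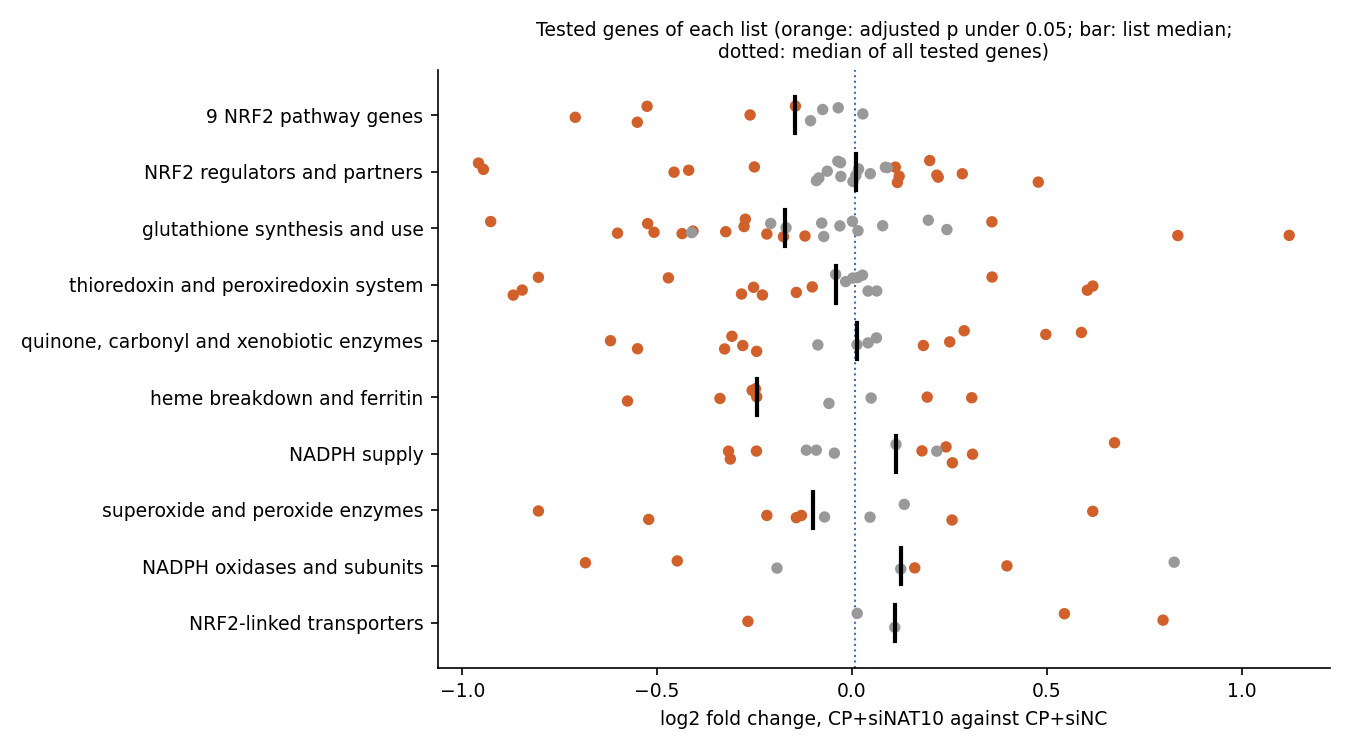
Log2 fold change between CP+siNAT10 and CP+siNC of each tested gene in the 9 genes described and in 9 lists of related genes; orange points have an adjusted p under 0.05, black bars are list medians and the dotted line is the median of all tested genes. The medians run from -0.244 for heme breakdown and ferritin to 0.125 for NADPH oxidases, against 0.0070 for all tested genes.

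Of 26 tested genes of glutathione synthesis and use, 12 were lower and 3 higher, with a median log2 fold change of -0.17. LANCL1, a glutathione-binding protein, fell from 22.5 ± 0.443 to 11.8 ± 0.123 CPM (-0.93, adjusted p = 1.78e-12, edgeR). The extracellular peroxidase GPX3 fell from 138 ± 4.69 to 104 ± 3.22 CPM (-0.41, adjusted p = 3.27e-10, edgeR). The transferases GSTO1 and GSTM3 fell by 0.52 and 0.44 on the log2 scale, while GSTP1, the highest per length of the glutathione transferases listed, was at 90.9 ± 3.64 and 91.0 ± 1.95 CPM (95% interval of the log2 fold change -0.08 to 0.08). GPX4, the peroxidase that reduces lipid peroxides, fell slightly, from 345 ± 5.11 to 317 ± 12.5 CPM (-0.12, adjusted p = 0.00462, edgeR), and lost its call without CP+siNAT10 replicate 2 (-0.09, adjusted p = 0.0662, edgeR). Chosen after their values were seen, SLC7A11, the cystine transporter and an NRF2 target, rose from 3.05 ± 0.228 to 5.46 ± 0.201 CPM (0.84, adjusted p = 3.04e-06, edgeR), and glutathione reductase, GSR, was at 33.3 ± 0.576 and 32.6 ± 0.0754 CPM (adjusted p = 0.639, edgeR). The 3′ UTR of SLC7A11 holds 4 matches to the heptamer CATATTC. Over all tested genes 4440 were lower and 4331 higher, and scaling by library size only gave 3786 lower and 5050 higher.

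Enzymes related to NQO1 by role, which reduce quinones and carbonyls or process xenobiotics, were divided. Of 15 tested genes, 6 were lower and 5 higher, and the median was 0.01. Aldose reductase, AKR1B1, fell from 209.8 ± 0.643 to 167 ± 5.03 CPM (log2 fold change -0.33, adjusted p = 3.78e-09, edgeR), and the aldehyde dehydrogenase ALDH7A1 and the carbonyl reductase CBR3 fell by 0.31 and 0.62 on the log2 scale. The cytochrome P450 gene CYP1B1 rose from 18.4 ± 0.808 to 27.6 ± 1.72 CPM (0.59, adjusted p = 4.78e-09, edgeR), and the epoxide hydrolase EPHX1 rose by 0.18 on the log2 scale. A further 7 genes of this list, among them AKR1B10, AKR1C2 and AKR1C3, which are strong NRF2 targets in other cells, had too few counts to test; these 3 were named after their values were seen.

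Around HMOX1, 5 of 9 tested genes of heme breakdown and ferritin were lower and 2 higher. Of the 5 lower genes, SLC48A1 and BLVRB, named after their values were seen, lost their call with DESeq2 (adjusted p = 0.0617 and 0.125). BLVRB, whose groups overlapped, also lost it with library size only and in edgeR without CP+siNC replicate 2 (adjusted p = 0.190) or CP+siNAT10 replicate 1 (adjusted p = 0.147). The constitutive heme oxygenase HMOX2 was higher per length than HMOX1 in CP+siNC (15.9 against 4.80 RPKM) and fell from 53.8 ± 1.09 to 42.6 ± 2.03 CPM (log2 fold change -0.34, adjusted p = 4.63e-07, edgeR). The ferritin chains moved in opposite directions. The heavy chain, FTH1, rose from 234 ± 5.26 to 289.5 ± 9.09 CPM (0.31, adjusted p = 1.51e-08, edgeR), and the light chain, FTL, fell from 133 ± 3.64 to 111 ± 2.69 CPM (-0.26, adjusted p = 8.69e-07, edgeR). Processed pseudogenes of both chains exist, and any split of reads with them makes these values uncertain. The porphyrin transporter ABCB6 fell by 0.58 on the log2 scale.

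NADPH supplies the electrons for TXNRD1 and NQO1. Of 13 tested genes of NADPH supply, 3 were lower and 5 higher, with a median log2 fold change of 0.11. PGD, of the pentose phosphate pathway, fell from 254 ± 3.39 to 204 ± 2.28 CPM (-0.32, adjusted p = 3.24e-09, edgeR). Malic enzyme ME1 rose from 8.18 ± 0.775 to 13.0 ± 1.14 CPM (0.67, adjusted p = 4.58e-07, edgeR), and IDH2 and NADK rose by 0.31 and 0.24 on the log2 scale. Both PGD and ME1 are known NRF2 targets, and they moved in opposite directions. Of 5 tested transporters linked to NRF2, ABCC3 (0.55) and ABCC2 (0.80) were higher and ABCC5 (-0.27) was lower, while ABCC4 (0.11) was not called. ABCC2 was under 1 CPM in CP+siNC and lost its call in 6 of 12 alternative settings, among them leaving out CP+siNC replicate 1 or 3 (edgeR, adjusted p = 0.114 and 0.115) and CP+siNAT10 replicate 1 or 2 (edgeR, adjusted p = 0.124 and 0.0607).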

How the data were processed

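The authors deposited raw counts per gene for 6 libraries of stranded mRNA. The submitters' processing notes name Trimmomatic 0.36, STAR 2.5.3a, featureCounts of Subread 1.5.1, edgeR 3.12.1 and GRCh38. The kit adds molecular identifiers meant for removing duplicate reads. Whether the deposited counts were made after that step, the strand setting and the annotation release are not given in the sources used here, and unmerged copies would be counted as separate reads. Gene lengths were used as deposited, for RPKM.

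Groups and replicate numbers were taken from the titles. The analysis used edgeR 4.0.16 under R 4.3.3. After filterByExpr (minimum count 10, minimum total 15) 19874 of 62754 genes remained, library sizes were scaled by TMM, and groups were compared by glmQLFit and glmQLFTest without a block, with p-values adjusted over all tested genes. Standard errors came from the log2 fold change and F. Replicates of a group differed beyond counting noise (chi-square per gene 1.74 to 2.52, about 1 for counting noise alone, and 18.4 to 22.5 across groups). The fit was also run on simulated data as a check of the code, which is no evidence for any call reported here. Alternatives were RLE and library size scaling, no filter, a stricter filter (1 CPM), the replicate block, DESeq2 1.42.0 and leaving out each library.

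The 9 genes and all lists were chosen with earlier results of these data known, and the lists were written from general knowledge. In each list the 4 genes with the smallest p and the 2 with the highest RPKM were eligible to be named, and other genes are said to be named after their values were seen. Genes that overlap a member are named for their position. NOX5 and TRIM16L, whose symbols stand on 2 rows each, were left out. Sequences are from RefSeq and GENCODE 29, and all 9 genes overlapped their GENCODE position on the same strand. Plots were drawn with matplotlib 3.10.9.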

Additional observations from a re-analysis of the deposited data

How the results depend on the processing

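In each of 12 alternative settings the same 5 genes, TXNRD1, NQO1, SRXN1, GCLM and NFE2L2, were called lower and none of the 9 was called higher. The number of the 9 called was 5 in all settings except without CP+siNC replicate 2, where KEAP1 was added, so leaving out single libraries gave 5 to 6. With the replicate block it was 5. The sign turned for 2 genes that were never called, which was HMOX1 with library size only (log2 fold change 0.00226) and HMOX1 and GCLC without CP+siNAT10 replicate 3 (range over the libraries left out -0.089 to 0.00961 for HMOX1 and -0.00111 to 0.0578 for GCLC). The cause was not tested. KEAP1 ranged from -0.144 to -0.0265 over the libraries left out. The number of genes past both limits, 464 of all tested, was 711 with no filter on low counts and 299 with the stricter filter. Deviations from the group mean correlated at 0.00808, 0.0639 and -0.205 between same-numbered libraries over 12304 genes. Between differently numbered libraries the correlations ran from -0.217 to 0.198. With 3 libraries per group these values cannot decide whether the numbers pair the libraries. The replicate block gave 8526 called genes against 8771. DESeq2 called the fewest, 6306, and library size only the most, 8836 (5050 higher, 3786 lower). Of the 77 called genes in the lists, 68 kept their call in all 12 settings and none changed sign. The number called was 11 to 16 for regulators and partners (13 as reported), 9 to 12 for thioredoxins and peroxiredoxins (12) and 5 to 7 for heme breakdown and ferritin (7). Genes with few counts, such as HMOX1, have the widest intervals.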

Other observations

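Of 10 tested genes of enzymes that remove superoxide and peroxide, 5 were lower and 2 higher, with a median log2 fold change of -0.10. PRDX1, PRDX6 and GPX1, which are 3 of the 5 lower genes, are also counted in the thioredoxin or glutathione lists. The cytosolic superoxide dismutase SOD1, the highest per length of them at 484 RPKM in CP+siNC, was at 960.3, 917 and 990.2 CPM in CP+siNC and at 694, 672 and 631 CPM in CP+siNAT10. Every CP+siNAT10 library was below every CP+siNC library (log2 fold change -0.52, standard error 0.0372, adjusted p = 2.84e-12, edgeR). The mitochondrial enzyme SOD2, named after its values were seen, was at 135 ± 0.818 and 139.6 ± 1.52 CPM and was not called (adjusted p = 0.278, edgeR). Catalase, CAT, rose from 6.65 ± 0.530 to 10.1 ± 1.01 CPM (0.62, adjusted p = 7.19e-06, edgeR), and GPX1 fell by 0.22 on the log2 scale.

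Of 16 genes of NADPH oxidases and their subunits, 7 had enough counts to test, and of these 2 were lower and 2 higher. The catalytic subunits NOX1, NOX3, NOX4 and CYBB were among the 9 with too few counts, and were named after their values were seen. RAC1 rose from 146 ± 2.47 to 193 ± 2.53 CPM (log2 fold change 0.40, adjusted p = 6.51e-11, edgeR) and the membrane subunit CYBA by 0.16 on the log2 scale. RAC2 fell by 0.45 on the log2 scale.

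Over all lists of related genes, 3′ UTRs with the heptamer GACTATC, its shifted neighbour ACTATCA or the heptamer CATATTC were counted by call, with no test; the heptamers came from an earlier search of these libraries. A match was present in 9 of 45 lower genes (20%), in 4 of 32 higher genes (12.5%) and in 4 of 47 genes that were not called (8.51%). Over all tested protein-coding genes the shares were 26.9%, 12.5% and 15.1%.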
